A study of Mus musculus with 3 samples.

Results

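Galectin expression was read in Colon26, a colon adenocarcinoma line of the mouse, and in its sublines LuM1 and NM11 from 6 genes, namely *Lgals1*, *Lgals3*, *Lgals7*, *Lgals8*, *Lgals9* and *Lgals3bp*. Their probes were found by the RefSeq accession that the array gives for each probe, which yielded 8 probes for the 6 genes among 32994 named probes of 22911 genes. The family was chosen by its gene names with the scaled signals of these same 3 arrays in view, and those signals count as used in the choice, so every value below is a description. LuM1 is the rapidly metastatic subline, whereas Colon26 and NM11 are slowly metastatic, and the labels give BALB/c and female for all 3. Each line was kept in RPMI1640 medium with 10% FBS and cultured for 3 days, and 0.1 µg of its total RNA was labelled with Cy3 and hybridized to 1 array. No line carried a transgene or received an agent in this experiment according to the labels. A single RNA per line stands for the whole line, so that nothing measures how cultures of 1 line differ.

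Galectins are small lectins that bind β-galactoside sugars on glycoproteins and glycolipids, and by crosslinking these they alter adhesion, receptor retention and cell survival. Galectins 1 and 7 have a single carbohydrate recognition domain and act as dimers, galectin-3 joins such a domain to a long flexible tail, and galectins 8 and 9 carry a pair of different domains on one chain. *Lgals3bp* encodes no galectin but a secreted, heavily glycosylated protein that galectins bind. In normal tissue galectin-7 is known from stratified epithelium, galectin-3 from macrophages and colon epithelium, and galectin-1 from fibroblasts and other mesenchymal cells.

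Between 49.9% and 53.8% of 56605 probes were well above background per array by the scanner software, and no spot was saturated. Signals were scaled so that the 75th percentile of each array became 585.1, and a signal is given with the scanner software's error, which is near 10.0% of the signal and technical only. Of 10 colon epithelium markers, 3 were well above background in Colon26 cells, 4 in LuM1 cells and 3 in NM11 cells, with summed signals of 1123.4, 421.8 and 361.6, and *Cdh1*, *Vil1*, *Cdx1*, *Krt18*, *Krt19* and *Cdh17* were not well above background on any array. Such a sum adds only the markers well above background on its array, from probes without a common scale. It is therefore no amount of a cell type. Of 10 fibroblast markers, 7, 8 and 8 were well above background in Colon26, LuM1 and NM11 cells. Among the colon epithelium markers, *Cdx2*, *Krt20* and *Krt8* were well above background on every array, and *Epcam* in LuM1 cells only. Most of the 10 listed were thus not detected in lines labelled as colon adenocarcinoma.

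Every array measured all 6 genes well above background. LuM1 cells held about 1% of the *Lgals7* signal of both slowly metastatic lines, and both sublines held over 8 times the *Lgals3bp* signal of Colon26 cells. Fewer cells of a type and less RNA per cell cannot be told apart in such bulk RNA. *Lgals9* was raised in NM11 cells only, by the 2-fold criterion used here. *Lgals1*, *Lgals3* and *Lgals8* stayed within 2-fold in all 3 pairs of lines.

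**Figure D1:**
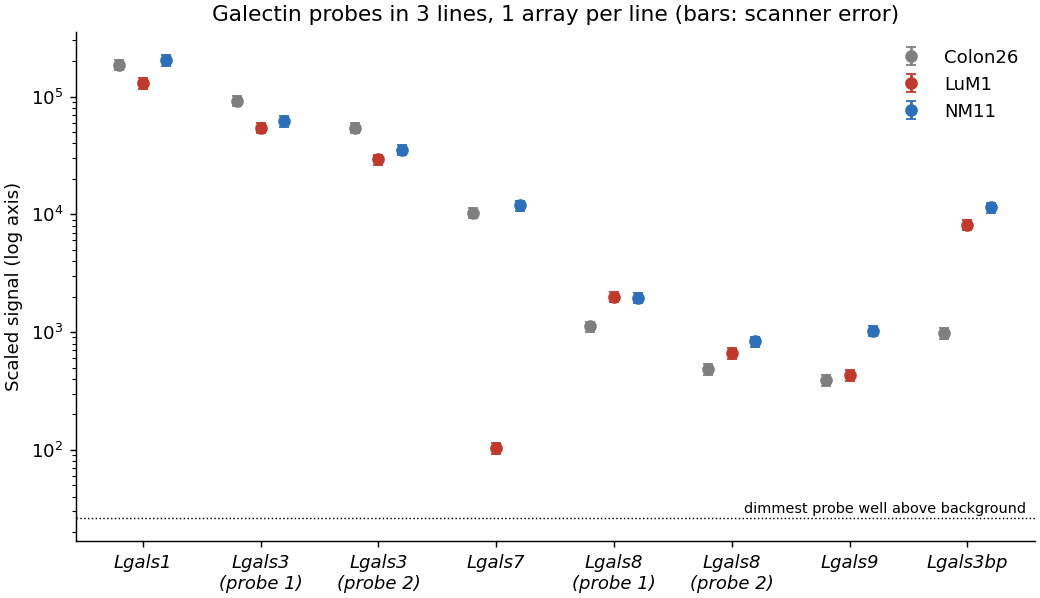
Scaled signal (log axis) of the 8 galectin probes in Colon26, LuM1 and NM11 cells, 1 array each, with the scanner error as bars. The *Lgals7* point of LuM1 cells lies at 104, far below the other 2 lines, and the *Lgals3bp* point of Colon26 cells at 977, far below both sublines. Signals of different probes have no common scale and are not to be compared.

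*Lgals7* was read by 1 probe (A_51_P302327, RefSeq NM_008496). Its scaled signal was 10243 ± 1024 in Colon26 cells, 104 ± 11.2 in LuM1 cells and 11898 ± 1190 in NM11 cells. LuM1 cells therefore held 1.01% of the Colon26 level and 0.871% of the NM11 level, and the remaining signal was still above the lowest signal called well above background on that array, 20.1. On the log2 scale LuM1 over Colon26 was -6.63 ± 0.21 (scanner error), or 98.8-fold lower, and LuM1 over NM11 was -6.84 ± 0.21, or 115-fold lower. Colon26 and NM11 cells differed by a log2 ratio of 0.22, barely beyond the scanner error of 0.20. Among genes well above background on both arrays, *Lgals7* had the 6th lowest of 12394 ratios of LuM1 over Colon26. For LuM1 over NM11 it had the 6th lowest of 12848. Genes not well above background in LuM1 cells were left out of these ranks. No spot of the probe was marked as an outlier, and the raw spot brightness was 10215 in Colon26 cells, 157 in LuM1 cells and 11225 in NM11 cells beside a local background of 33.0, 30.0 and 28.0.

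*Lgals3bp* was read by 1 probe (A_51_P359636, RefSeq NM_011150). The scaled signal was 977 ± 97.8 in Colon26 cells, 8159 ± 816 in LuM1 cells and 11432 ± 1143 in NM11 cells. Relative to Colon26 cells, the mRNA level was 8.35-fold higher in LuM1 cells (log2 ratio 3.06, scanner error 0.20) and 11.7-fold higher in NM11 cells (log2 ratio 3.55, same error). Among genes well above background on both arrays, it ranked as the 185th highest of 12394 ratios for LuM1 and the 70th highest of 12469 for NM11. Genes not well above background in Colon26 cells were left out of these ranks, and some rose more. An example is *Dcn*, at least 10.02 higher in LuM1 cells on the log2 scale. Both comparisons use the same Colon26 array. The sublines lay closer to each other, with LuM1 over NM11 at -0.49, which exceeded the scanner error of 0.20. This ratio fell within the error with the authors' processed values (-0.07) and the E1A spike-in controls (-0.16). It turned to 0.10 when the arrays were scaled to *Hprt*.

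*Lgals9*, which encodes a galectin with 2 different sugar-binding domains, was read by 1 probe (A_55_P2070079, RefSeq NM_010708). Colon26 cells gave a scaled signal of 391 ± 39.6, LuM1 cells 429 ± 43.2 and NM11 cells 1024 ± 102. Colon26 and LuM1 cells did not differ beyond the scanner error at this scaling, with a log2 ratio of 0.13 and an error of 0.21. This ratio exceeded the error with the authors' processed values (0.58), unscaled (0.24) and scaled to *Hprt* (0.23), and stayed within it in the other settings. NM11 cells held 2.62-fold the Colon26 level and 2.38-fold the LuM1 level, log2 ratios of 1.39 with an error of 0.21 and, for LuM1 over NM11, -1.25 with an error of 0.20. Both calls were lost when the arrays were scaled to *Hprt*, where the ratios became 0.90 and -0.66, and the call against LuM1 was also lost with the E1A spike-in controls (-0.93) and with the authors' processed values (-0.84).

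*Lgals8* encodes the other galectin with paired domains here and was read by 2 probes of RefSeq NM_018886. The brighter one (A_52_P598128) gave 1118 ± 112 in Colon26 cells, 1988 ± 199 in LuM1 cells and 1961 ± 196 in NM11 cells. Both sublines were above Colon26 cells, with log2 ratios of 0.83 for LuM1 and 0.81 for NM11 and a scanner error of 0.20, and they did not differ from each other beyond that error (0.02). The other probe (A_51_P316981) gave 483 ± 48.7, 660 ± 66.2 and 833 ± 83.4 in the same order. With this probe LuM1 cells lay between the others, at 0.45 over Colon26 and -0.33 over NM11. Colon26 cells were thus the lowest with both probes, whereas the order of LuM1 and NM11 depended on the probe.

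*Lgals3* was also read by 2 probes. The single spot of A_55_P2171116 (RefSeq NM_001145953) gave 92390 ± 9239 in Colon26 cells, 54399 ± 5440 in LuM1 cells and 61694 ± 6169 in NM11 cells. Colon26 cells were the highest, with log2 ratios of -0.76 for LuM1 and -0.58 for NM11 and a scanner error of 0.20, and the difference between the sublines (-0.18) lay within that error. The other probe (A_51_P101929, RefSeq NM_010705) was printed 10 times on each array and gave mean signals of 54239 ± 1324 in Colon26 cells, 29202 ± 743 in LuM1 cells and 35138 ± 799 in NM11 cells (SD over 10 spots). The spots ran from 51944 to 55917, from 28089 to 30108 and from 33718 to 36322, so the spots of no 2 arrays overlapped at this scaling. The order Colon26, NM11, LuM1 was the same for both probes, with ratios of -0.89, -0.63 and, for LuM1 over NM11, -0.27 from the repeated spots. Repeated spots share 1 labelled RNA and 1 scaling factor per array, so this spread is that of printing and hybridization and says nothing on the lines.

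**Figure D2:**
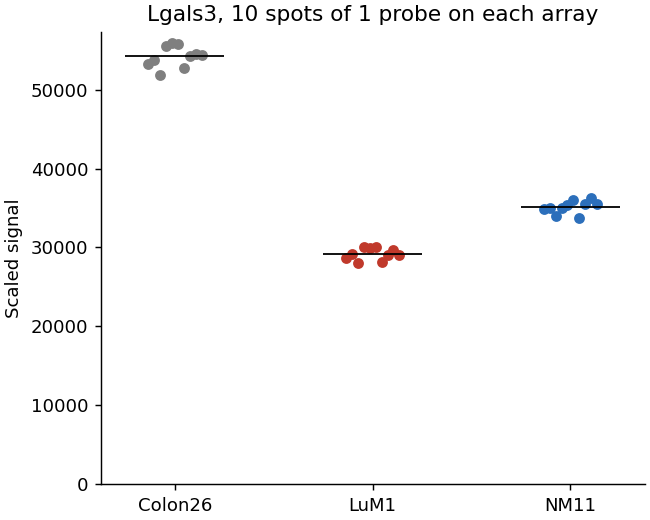
Scaled signal of the 10 spots of the *Lgals3* probe A_51_P101929 on each array (points, spread sideways for visibility) with their mean (line), from 0 on a linear axis. At the scaling used, the spots of the 3 arrays form bands that do not overlap, around 54239 in Colon26 cells, 29202 in LuM1 cells and 35138 in NM11 cells. The order of LuM1 and NM11 cells rests on this scaling.

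*Lgals1* was read by 1 probe (A_51_P465281, RefSeq NM_008495), with a scaled signal of 185876 ± 18588 in Colon26 cells, 129634 ± 12963 in LuM1 cells and 203177 ± 20318 in NM11 cells. LuM1 cells had the lowest level, at -0.52 over Colon26 and -0.65 over NM11 on the log2 scale (scanner error 0.20). Over Colon26 the value came within the scanner error of 0 with the authors' processed values (-0.07) and with quantile normalization (-0.09). Over NM11 it did so when scaled to *Hprt* (-0.06). Colon26 and NM11 cells did not differ beyond that error (0.13). The brightest of its spots reached 25.7% of the saturation value.

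By the 2-fold criterion, 1 of the 6 genes was higher in LuM1 than in Colon26 cells (*Lgals3bp*; 13.1% of all genes with a ratio) and 1 was lower (*Lgals7*; 11.8%). In NM11 over Colon26, 2 of 6 were higher (*Lgals9* and *Lgals3bp*; 8.33%) and 0 were lower (7.9%). In LuM1 over NM11, 0 of 6 were higher (11.1%) and 2 were lower (*Lgals7* and *Lgals9*; 8.5%). A count of 1 or 2 among 6 genes is too small to be read against these shares. The median log2 ratio of the 6 genes was -0.19, 0.51 and -0.57 in the 3 comparisons in this order, against -0.10, -0.01 and -0.09 for all genes with a ratio.

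**Figure D3:**
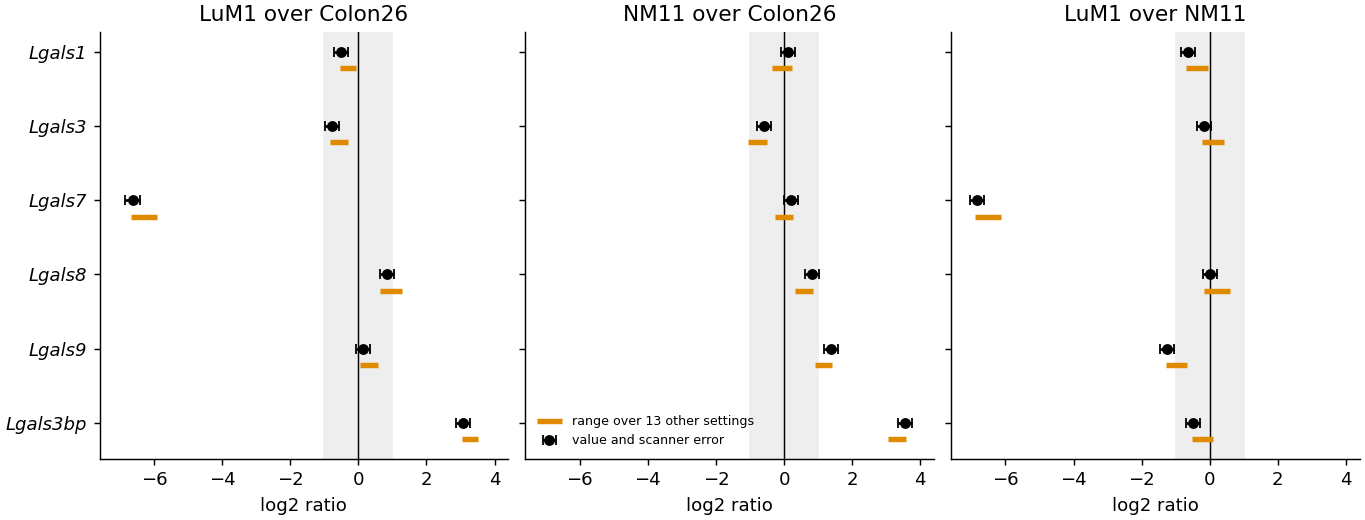
Log2 ratio of each galectin gene in the 3 pairs of lines (points, with the scanner error), the range over 13 other ways of processing (orange) and the zone within 2-fold (grey). *Lgals7* at -6.63 and -6.84 and *Lgals3bp* at 3.06 and 3.55 lie far outside the zone under all 13, whereas the range of *Lgals9* reaches into it.

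**Figure D4:**
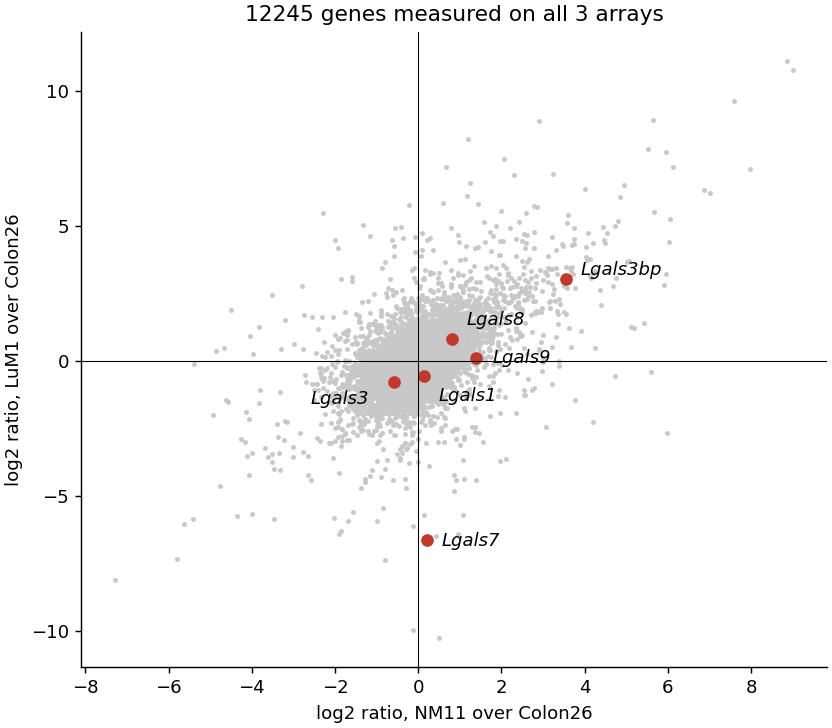
Log2 ratio of LuM1 over Colon26 (vertical) against NM11 over Colon26 (horizontal) for the 12245 genes measured on all 3 arrays (grey) and the galectin genes (red). Both axes share the Colon26 array, so the slant of the cloud is partly built in. *Lgals7* lies at the lower edge with a horizontal value near 0, and *Lgals3bp* at the upper right.

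Genes with the most similar pattern were sought among 12244 others measured on all 3 arrays, by the Euclidean distance of 3 log2 signals, each centred on its own mean. Nearest to *Lgals7* were *Thbs1*, encoding thrombospondin 1, at a distance of 0.15, then *Fgf7*, a growth factor of mesenchymal cells, at 0.53, and *Car6*, a secreted carbonic anhydrase, at 0.63. *Thbs1* was the only gene within 0.5 log2 units. Its log2 ratios were -6.46 for LuM1 over Colon26 and 0.42 for NM11 over Colon26. Nearest to *Lgals3bp* were *1500011B03Rik*, *Odf2*, known from sperm tails and centrioles, and *Clec2d*, a lectin-like ligand of natural killer cells, at 0.13, 0.20 and 0.22, and 23 genes lay within 0.5. For *Lgals9* the nearest were *Cnbd2*, *AI839979* and *Kcnip1*, a modulator of potassium channels, at 0.07, 0.08 and 0.09, with 238 genes within 0.5, so that its pattern was a common one. With 3 arrays such likeness rests on 2 independent values per gene.

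*Lgals7* lies on chromosome 7 next to *Lgals4*. In gene order, the 5 named genes on either side were *Gm19897*, *Rinl*, *Hnrnpl*, *Ech1* and *Lgals4*, then *Capn12*, *Actn4*, *Eif3k*, *Map4k1* and *Ryr1*. For LuM1 over Colon26, 9 of these 10 had a ratio, and the ratios ran from -1.47 (*Lgals4*) to 2.95 (*Map4k1*, a kinase of blood cells). On the far side of *Lgals7*, *Capn12* was at -0.52 and *Actn4*, an actin crosslinker, at -0.20. No neighbour came close to the -6.63 of *Lgals7* itself. *Map4k1* and *Rinl* (2.10), the 2 neighbours more than 2-fold higher in LuM1 cells, differed in the opposite direction. These neighbours were looked at after the values were known.

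**Figure D5:**
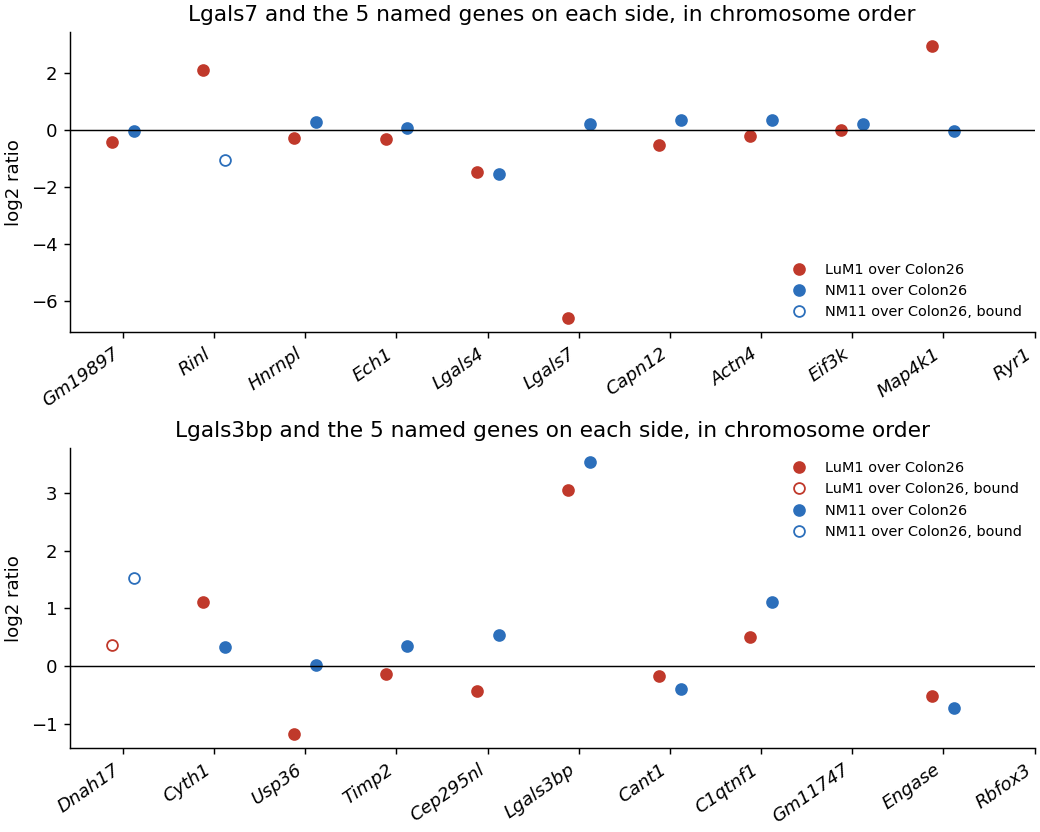
Log2 ratio of LuM1 over Colon26 (red) and of NM11 over Colon26 (blue) for *Lgals7* and *Lgals3bp* and the 5 named genes on each side of each, in chromosome order but not to scale. Open circles are bounds, and a gene without a point had no ratio. *Lgals7* at -6.63 lies below all its neighbours in LuM1 cells, and *Lgals3bp* at 3.06 and 3.55 above all of its own in both sublines.

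Around *Lgals3bp* on chromosome 11, 8 of 10 neighbours had a ratio in LuM1 over Colon26, from -1.19 (*Usp36*) to 1.11 (*Cyth1*), and 8 in NM11 over Colon26, from -0.73 (*Engase*) to at least 1.54 (*Dnah17*, a bound because Colon26 cells were not well above background). *Cep295nl* and *Cant1*, directly beside *Lgals3bp*, were at -0.44 and -0.18 for LuM1 and at 0.53 and -0.40 for NM11. *Lgals9* lies elsewhere on chromosome 11, between *Nos2* and *Ksr1*. *Nos2*, the inducible nitric oxide synthase, was at 1.74 for LuM1 over Colon26 and -0.30 for NM11 over Colon26, unlike *Lgals9* at 0.13 and 1.39.

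The 250 bases before the start of *Lgals9* and of *Lgals3bp*, the 2 genes at least 2-fold higher in NM11 than in Colon26 cells, are shown from RefSeq (GRCm38.p6, minus strand) because *Lgals3bp* is known as an interferon-induced gene and each window holds a pair of GAAA blocks, the building block of interferon-response elements. The capitals mark the pair.
Lgals9, chr11:78984925-78985174: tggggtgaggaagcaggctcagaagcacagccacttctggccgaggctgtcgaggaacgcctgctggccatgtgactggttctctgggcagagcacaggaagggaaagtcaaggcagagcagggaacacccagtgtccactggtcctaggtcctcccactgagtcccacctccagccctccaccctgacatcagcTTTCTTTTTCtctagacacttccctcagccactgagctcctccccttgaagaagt
Lgals3bp, chr11:118401960-118402209: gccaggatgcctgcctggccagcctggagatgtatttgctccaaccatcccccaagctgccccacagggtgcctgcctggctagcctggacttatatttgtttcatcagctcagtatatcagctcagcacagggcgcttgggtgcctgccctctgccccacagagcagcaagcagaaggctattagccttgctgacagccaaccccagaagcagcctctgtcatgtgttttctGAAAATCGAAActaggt
In the *Lgals9* window the pair is read on the opposite strand, its blocks lie 2 bases apart (the core of an interferon-stimulated response element), and it ends 45 bases before the start. Of 32851 promoter windows of this length, searched on both strands, 2.98% held a pair so spaced. In the *Lgals3bp* window the blocks lie 3 bases apart, and the pair ends 6 bases before the start. This wider pair, searched for after the window had been seen, occurred in 2.38% of windows. The motifs TTCNNNGAA, TGANTCA and TATAAA, in 7.02%, 6.75% and 12.4% of all windows, matched none of the 5 galectin windows in the table, which holds *Lgals3*, *Lgals7*, *Lgals8*, *Lgals9* and *Lgals3bp*. GGGCGG, in 32.7% of windows, matched those of *Lgals3* and *Lgals7*, although the *Lgals7* window lies inside the span of its gene in the annotation. A match is a run of letters and does not show a site in use.

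Of 6 further genes of the galectin family, 5 had a named probe, and *Lgals6* had none. *Lgalsl*, a galectin-like gene, gave 1099 ± 110 in Colon26 cells, 508 ± 51.0 in LuM1 cells and 2432 ± 243 in NM11 cells. The sublines lay on opposite sides of Colon26 cells, at -1.11 and 1.15 on the log2 scale with a scanner error of 0.20, and its other probe gave -1.29 and 1.15. *Lgals4*, the galectin of intestinal epithelium, gave 198 ± 20.6 in Colon26 cells, 71.7 ± 8.41 in LuM1 cells and 68.2 ± 8.0 in NM11 cells, and was at least 2-fold lower in both sublines with both of its probes. The brighter *Lgals12* probe gave 388 ± 39.3, 204 ± 20.9 and 306 ± 30.9, a log2 ratio of -0.93 for LuM1 over Colon26, and its other probe was not well above background on any array. *Lgals2* and *Grifin* were not well above background on any array.

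The sugars that galectins read are built and capped by glycosyltransferases, of which 16 were listed. In LuM1 over Colon26, 13 of them had a ratio, 3 were at least 2-fold higher and 0 lower (24.9% of all genes either way), with a median log2 ratio of 0.67. The 3 were *Mgat3* (2.14), which adds the bisecting branch to N-glycans, *St3gal1* (1.74), which caps O-glycans with sialic acid, and *Gcnt2* (1.48), which branches poly-lactosamine. The dimmer *St3gal1* probe gave 2.68, and it was also at 2.56 in NM11 over Colon26, where the brighter probe was at 0.80. In NM11 over Colon26, 4 of 14 were called (16.2% of all genes), with a median of 0.41. *C1galt1*, which makes the core O-glycan, was at 1.96 and *Mgat4a*, an N-glycan branching enzyme, at -1.91. *Mgat3* was not well above background in NM11 cells and at least 8.99-fold lower than in Colon26 cells, and *Gcnt1* was at least 2.86-fold higher. In LuM1 over NM11, 4 of 14 were called (19.6% of all genes), with a median of 0.26. *Mgat4a* was at 2.35 and *C1galt1* at -1.52, and the other calls were bounds, *Mgat3* at 5.31 or higher and *Gcnt1* at -1.91 or lower. *Mgat5* and *St6gal1*, enzymes known for making and for blocking galectin ligands and named here after their values were seen, were not well above background on any array.

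Of 22 glycoproteins described as bound by galectins, 17 had a ratio in LuM1 over Colon26. Of these, 7 were at least 2-fold higher and 1 was lower (13.1% and 11.8% of all genes with a ratio). The median log2 ratio was 0.70, against -0.10 for all genes with a ratio. Among the 7, *Egfr*, *Alcam* and *Havcr2* were bounds, which had a ratio only because LuM1 cells were well above background. The shares over all genes include bounds as well. *Pdpn*, encoding podoplanin, was the most different of those measured on both arrays, with 2130 in Colon26 cells, 39225 in LuM1 cells and 14605 in NM11 cells, log2 ratios of 4.20 and 2.78. *Lamp2*, a lysosomal membrane protein, was at 1.45 and 1.31, and *Cd47* at 1.44 and 0.78. The 1 lower gene was *Cd44*, the hyaluronan receptor, with 6953 in Colon26 cells, 3317 in LuM1 cells and 9723 in NM11 cells, a log2 ratio of -1.07. The other *Cd44* probes gave -1.63 (6043 in Colon26 cells) and -0.31 (48.8 in Colon26 cells). In NM11 over Colon26, 6 of 18 were higher and 1 was lower (8.33% and 7.9% of all genes), and the median was 0.66, against -0.01. *Egfr* and *Alcam* were bounds among the 6 higher ones. The lower one was *Itga3*, an integrin subunit, at -1.45, with a dimmer probe at -0.84. In LuM1 over NM11, 4 of 19 were higher and 1 was lower (11.1% and 8.5% of all genes), with a median of 0.08, against -0.09. *Havcr2* was a bound among the 4 higher ones. *Egfr* at 3.05, *Alcam* at 1.66 and *Cd44* at -1.55 were the most different measured ones. *Alcam*, an adhesion molecule picked out after its values were seen, was not well above background in Colon26 cells, and its level was at least 151-fold higher in LuM1 cells and at least 47.6-fold higher in NM11 cells. *Havcr2* (TIM-3), a receptor described for galectin-9 and also picked out after its values were seen, was well above background in LuM1 cells only, at 64.3.

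Markers of the cell types in which galectins are usually found were set beside the galectin genes. Of 10 stratified epithelium markers, the usual setting of *Lgals7*, 5 were well above background in Colon26 cells, 4 in LuM1 cells and 5 in NM11 cells, with summed signals of 4445.6, 3674.2 and 4721.3. Here and below, a sum adds only markers well above background on its array, from probes without a common scale. In the stratified epithelium sums *Trp63* alone made up 3837, 2724 and 3972. *Trp63*, the p63 regulator of stratified epithelium, was at -0.49 in LuM1 over Colon26. The 1 marker called was *Sfn*, encoding stratifin, at 2.24 in LuM1 over Colon26 and 1.36 over NM11 (24.9% and 19.6% of all genes either way). None of the arrays called *Krt15*, *Dsg3*, *Ivl* or *Perp* well above background. Of 10 macrophage markers, 4, 5 and 4 were well above background, with summed signals of 7034.3, 17046 and 6212.6. *Cd68* and *Cd14* were higher in LuM1 cells, at 4.93 and 1.86 over Colon26, and *Lyz2*, well above background in LuM1 cells only, was at least 2.08 higher. *Csf1r* and *Itgam*, well above background on every array, stayed within 2-fold, at 0.02 and 0.44. *Ptprc*, *Adgre1*, *Fcgr1*, *Tyrobp* and *Spi1* were not well above background on any array. *Lgals3*, usual in macrophages, was at -0.76 in LuM1 over Colon26. Of the fibroblast markers, 9 had a ratio in LuM1 over Colon26. Of these, 4 were at least 2-fold higher and 3 lower (13.1% and 11.8% of all genes with a ratio). Their summed signals were 66522, 55562 and 121269, of which *Col1a2* alone, a collagen gene, made up 59896 (Colon26) and 85275 (NM11). *Col1a2* was at -10.24 and *Col1a1* at -1.13, and *Postn*, not well above background in LuM1 cells, was at -2.14 or lower. In contrast, *Pdgfra*, a growth factor receptor, was at 4.18 and *Col3a1* at 1.99. *Dcn* and *Thy1*, not well above background in Colon26 cells, were at least 10.02 and 9.53 higher on the log2 scale. The part of marker differences in the galectin values was not tested.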

How the data were processed

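Total RNA of Colon26, LuM1 and NM11 cells was hybridized to SurePrint G3 mouse arrays, 1 array per line. The authors deposited intensity values for each spot from Agilent Feature Extraction 11.5.1.1, with background subtracted, and flags (other values, 0 or 1) for outliers, saturation and detection. They also deposited processed intensity values for the series, each of which is the scanner's value multiplied by a constant of its array (0.654, 0.829 and 0.706 for Colon26, LuM1 and NM11).

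Control and outlier spots were left out of the signals, repeated spots were averaged, and arrays were scaled to the 75th percentile of all non-control spots, 581.1 (Colon26), 625.1 (LuM1) and 551.5 (NM11) before scaling. This percentile was also computed over averaged probes and without outlier spots, with the galectin values in view, and the version equal to the scanner software's own was kept. The members, lists and tests were chosen with earlier results of these data known. Probes were named through RefSeq accessions of GRCm38.p6 (58.3% of 56605), and because the array was designed on an older build no probe coordinates are given. A gene was read by its brightest probe over the 3 arrays (mean of log2 signals).

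A call means a difference of at least 2-fold. A probe not well above background on 1 array gives a bound, taken at its own signal there or at the array's dimmest signal well above background (26.4, 20.1 and 19.6), whichever is higher, and no ratio where both are dim. With 1 array per line there is no replicate check and no test, and precision is limited by the number of arrays. The genes named were every probe of the members and of the other galectin genes, the largest measured differences of each list, and the 3 nearest genes of each member called. Genes given as a bound or as not detected, neighbours, markers and further probes of list genes fall outside this rule and were chosen after their values were seen. Alternatives were unscaled signals, arrays scaled to *Hprt*, to E1A spike-ins or to the median measured probe, quantile normalization, normexp (offset 50, on the median brightness, the column the files hold), the authors' processed values, a looser or no detection filter, the mean over probes, the probe brightest in LuM1 cells, a 4-fold threshold and, added after seeing the data, both other percentiles. The calling steps were tested on simulated data with 4-fold changes in genes detected on all arrays and the scanner error as the only noise. This simulation was an easy case and covered neither bounds nor differences between cultures of 1 line. Python 3.11.15 (numpy 2.4.6, pandas 2.3.3, matplotlib 3.10.9) and R 4.3.3 (limma 3.58.1) were used.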

Additional observations from a re-analysis of the deposited data

Results flagged for a closer look

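*Lgals7* and *Lgalsl* stand out because the sublines lay on opposite sides of Colon26 cells, each by more than the scanner error, a condition set after the values were seen. The log2 ratios of *Lgals7* were -6.63 for LuM1 and 0.22 for NM11. Its NM11 value rests on the scaling, since it was 0.20, inside the scanner error, when outlier spots were left out of the 75th percentile, and -0.27 when the arrays were scaled to *Hprt*. The log2 ratios of *Lgalsl* were -1.11 for LuM1 and 1.15 for NM11. With 1 array per line the difference between the sublines was not tested in either gene.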

How the results depend on the processing

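Of 234 galectin log2 ratios recomputed under 13 alternatives, 190 moved by less than the scanner error, 44 moved by more, and 0 of the 2-fold calls turned to the other direction. Part of the 190 was fixed in advance. Every galectin gene was well above background on all arrays, so the looser detection filter and no filter could not change a ratio. Nor could the settings on the choice of probe for genes read by 1 probe. The 190 thus overstates how stable the ratios were. Of 168 counts, 149 stayed within 1.5 times the value reported and 19 did not. The galectin counts likewise could not change under either detection setting. The 149 also include shifts, such as binding partners from 7 to 5 in NM11 over Colon26 (E1A controls) and enzymes from 4 to 6 in LuM1 over NM11 (unscaled). Scaled to *Hprt*, galectin genes called in NM11 over Colon26 became 1 higher (*Lgals3bp*) and 1 lower (*Lgals3*) and the binding partners called became 3, and in LuM1 over NM11 1 galectin gene was lower and 7 ligand enzymes were called. Scaled to the E1A controls, LuM1 over NM11 gave 1 galectin gene lower and 8 enzymes. With the authors' processed values, LuM1 over Colon26 gave 2 galectin genes higher (*Lgals8* and *Lgals3bp*) and 7 enzymes, and LuM1 over NM11 gave 1 galectin gene lower and 8 enzymes. At 4-fold, LuM1 over Colon26 gave 1 enzyme and 3 partners, NM11 over Colon26 gave 1 galectin gene higher, 1 enzyme and 2 partners, and LuM1 over NM11 gave 1 galectin gene lower, 2 enzymes and 1 partner. The largest shifts of the median ratio were 0.45 for LuM1 over Colon26 (authors' values), and -0.49 for NM11 over Colon26 and 0.59 for LuM1 over NM11 (*Hprt*). The *Lgals7* ratio of LuM1 ran from -6.69 to -5.92 over Colon26 and from -6.89 to -6.12 over NM11, and the *Lgals3bp* ratio over Colon26 from 3.04 to 3.51 for LuM1 and from 3.06 to 3.58 for NM11. Signs were not kept for *Lgals1* and *Lgals7* in NM11 over Colon26 and for *Lgals3*, *Lgals8* and *Lgals3bp* in LuM1 over NM11. Changing the set behind the percentile changed no count by more than 1.5 times. No paired analysis was possible because each line has 1 array. Dim probes limit *Lgals2*, *Grifin* and *Mgat5*, which have no ratio.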
